A study of Mus musculus with 18 samples.

Results

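The glycolysis and pyruvate switch genes were 33 genes taken by their symbols from the 55469 gene identifiers of an RNA-Seq series in mouse pluripotent stem cells. The set held the glucose transporters Slc2a1 and Slc2a3, the hexokinases Hk1, Hk2 and Hk3, glucose phosphate isomerase Gpi1, the phosphofructokinases Pfkl, Pfkm and Pfkp, the aldolases Aldoa and Aldoc, and the later enzymes Tpi1, Gapdh, Pgk1, Pgam1, Eno1, Eno2, Eno3 and Pkm. It also held the lactate dehydrogenases Ldha and Ldhb, the lactate transporters Slc16a1 and Slc16a3, the regulators Pfkfb1, Pfkfb2, Pfkfb3 and Pfkfb4, the pyruvate dehydrogenase kinases Pdk1, Pdk2, Pdk3 and Pdk4, and the pyruvate dehydrogenase subunits Pdha1 and Pdhb.

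Glycolysis splits glucose into pyruvate in the cytosol, and most of its steps can be carried out by several isoenzymes, each from its own gene and with its own tissue pattern. At the end of the pathway pyruvate either becomes lactate, through lactate dehydrogenase and export, or enters the mitochondrion, where pyruvate dehydrogenase turns it into acetyl-CoA and the Pdk kinases hold that enzyme inactive. Pluripotent cells are known for high glycolytic activity, and both Myc and the hypoxia-inducible factors are known to activate genes of this pathway.

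The series sets mouse stem cells with an inducible transgene for Oct4, Sox2, Klf4 and c-Myc (OSKM) switched on beside stem cells in a standard medium. RNA was sequenced in 18 libraries from 9 groups of 2. All embryonic stem cells (ESCs) came from 1 Tet-On-OSKM/Oct4-GFP line, from a cross of (C57BL/6 x 129S4/SvJae)F1 with (CBA/CaJ X C57BL/6J)F2, grown with feeder fibroblasts. OSKM-ESCs were kept in N2B27 with doxycycline (DOX), which turns on the transgene, and 2iL-ESCs in N2B27 with the MEK inhibitor PD0325901, the GSK3 inhibitor CHIR99021 and LIF (2iL), and both were collected on days 18, 25 and 38. Induced pluripotent stem cells (iPSCs) were clones from fibroblasts of strain (C57BL/6 x 129S4/SvJae)F1, and every group carried the transgene. OSKM-iPSCs were clone 1 at passage 7 and clone 3 at passage 6, and 2iL-iPSCs were clone 3 at passage 2 and clone 6 at passage 3. The sample labels give N2B27 with DOX as the daily medium of the 2iL-iPSCs, while the study's methods say that DOX was withdrawn and 2iL used. Passage and medium cannot be told apart in the iPSCs. In the OSKM-ESCs, DOX, the active transgene and the absence of the inhibitors and LIF go together and cannot be told apart. The term medium effect covers all of them. The mouse embryonic fibroblasts (MEFs), at passage 4, grew in DMEM with serum. Nothing in the labels says that the ESC libraries of a group came from separate cultures, so p-values measure the spread between these libraries, which may be technical.

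Levels are given in FPKM, fragments per kilobase of transcript scaled to the size of the library, which allows genes to be compared per length. Read totals were not given, and the files' read coverage amounted to 2.99 to 3.62 for each unit of FPKM in the median gene, with 11303 to 12095 genes above 1 FPKM. The 8 markers of pluripotent cells summed to 1174 to 1863 FPKM in OSKM-ESCs, 2862 to 3135 in 2iL-ESCs, 1008 to 1690 in OSKM-iPSCs, 2835 to 3318 in 2iL-iPSCs and at most 0.466 in MEFs. They include Pou5f1 (Oct4), which is also in the transgene and lay at 586 to 810 FPKM in OSKM-ESCs, so those sums are not of endogenous transcripts alone. The sums did not overlap between the media, and 6 of the 8 were lower and 1 higher in OSKM-ESCs over all days (median log2 difference -1.79), and 3 were lower in OSKM-iPSCs (median -1.50). The 12 fibroblast markers summed to 2002 to 2262 FPKM in MEFs, 21.6 to 40.6 in OSKM-ESCs, 4.62 to 7.12 in 2iL-ESCs and 2.03 to 3.62 in 2iL-iPSCs. The OSKM-iPSC clones stood apart from each other on this list, at 111 in clone 1 and 4.60 in clone 3. Of the neural markers 2 of 3 tested were higher and 1 lower in OSKM-ESCs, and of the endoderm markers 1 of 2 was higher. Both endoderm markers tested, and Pax6 among the neural ones, passed the filter (FPKM above 1) only through OSKM-ESC libraries. A lower call was therefore not possible for them, and these counts give no direction. The endoderm markers summed to 4.95 to 6.63 FPKM in OSKM-ESCs at day 38 and to at most 1.86 on days 18 and 25. Over all genes tested, 24.4% were lower and 29.5% higher in OSKM-ESCs, and 2.96% were lower in OSKM-iPSCs. Myc, which is in the transgene, lay at 67.9 to 141 FPKM in OSKM-ESCs and 7.57 to 13.6 in 2iL-ESCs, at 71.9 and 42.4 in the OSKM-iPSC clones, and at 16.7 and 16.1 in the 2iL-iPSC clones. Mycn, which is not in the transgene, lay at 52.9 to 103 FPKM in OSKM-ESCs and 37.7 to 51.1 in 2iL-ESCs, at 42.1 and 39.9 in the OSKM-iPSC clones, and at 38.9 and 44.2 in the 2iL-iPSC clones. Mycl lay at 4.02 to 17.6 FPKM in OSKM-ESCs and 4.11 to 6.08 in 2iL-ESCs. The part of these differences in the results was not tested, and in such bulk libraries fewer cells of a type and less RNA per cell cannot be told apart.

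Promoter sequences are shown for Pfkp, which had the largest difference between the media in ESCs, for Slc16a3, which had the largest ratio between days, and for Pgk1 and Ldha, textbook targets of the hypoxia-inducible factors. Each is the RefSeq window (GRCm38.p6) from 250 bases before to 50 bases after an annotated start, written 5′ to 3′ on the gene's strand, and capitals mark ACGTG on either strand (read as ACGTG or CACGT), the core of the hypoxia response element. The Pfkp window is chr13:6648722-6649021 on the minus strand. On the plus strand, the Slc16a3 window is chr11:120948817-120949116, the Pgk1 window chrX:106186850-106187149 and the Ldha window shown chr7:46845554-46845853. Ldha has a second window, chr7:46846832-46847131, which is not shown.
Pfkp: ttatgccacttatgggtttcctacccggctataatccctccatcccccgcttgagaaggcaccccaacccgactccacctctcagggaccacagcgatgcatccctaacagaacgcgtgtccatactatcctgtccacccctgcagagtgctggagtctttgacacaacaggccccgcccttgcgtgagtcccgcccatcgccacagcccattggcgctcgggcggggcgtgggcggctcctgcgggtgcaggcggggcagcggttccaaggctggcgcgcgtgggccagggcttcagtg
Slc16a3: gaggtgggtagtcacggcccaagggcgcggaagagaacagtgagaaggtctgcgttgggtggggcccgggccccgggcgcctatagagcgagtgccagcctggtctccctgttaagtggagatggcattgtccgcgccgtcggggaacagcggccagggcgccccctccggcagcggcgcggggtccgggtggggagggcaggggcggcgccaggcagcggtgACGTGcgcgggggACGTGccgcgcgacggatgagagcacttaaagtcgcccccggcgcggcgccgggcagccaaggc
Pgk1: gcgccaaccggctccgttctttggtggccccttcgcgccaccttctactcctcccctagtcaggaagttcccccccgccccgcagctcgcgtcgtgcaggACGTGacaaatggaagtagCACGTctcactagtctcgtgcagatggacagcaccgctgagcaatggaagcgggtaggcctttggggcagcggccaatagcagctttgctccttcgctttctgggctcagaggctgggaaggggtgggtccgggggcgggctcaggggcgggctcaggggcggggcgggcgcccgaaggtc
Ldha: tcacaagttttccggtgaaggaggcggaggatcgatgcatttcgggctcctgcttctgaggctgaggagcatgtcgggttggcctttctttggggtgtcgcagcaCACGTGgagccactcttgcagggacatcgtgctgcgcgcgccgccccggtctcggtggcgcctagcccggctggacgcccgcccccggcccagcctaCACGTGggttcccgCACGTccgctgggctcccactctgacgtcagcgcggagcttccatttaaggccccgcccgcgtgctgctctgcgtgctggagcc

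The Pfkp window held no ACGTG, the Slc16a3 and Pgk1 windows held 2 each, and of the 2 Ldha windows the one shown held 5 and the other 0. The matches in the Ldha window shown include 2 copies of CACGTG, the E-box that Myc can bind, and each E-box counts as 2 matches because it reads as ACGTG on both strands. RefSeq windows were found for 32 of the 33 members (all but Slc2a3), 51 windows in all because some genes have several starts. ACGTG occurred in 23 of these 51 windows (45.1%), from 19 members, against 6447 of all 32851 windows (19.6%). CACGTG occurred in 6 of the 51 (11.8%) against 2349 of all windows (7.15%). These are counts of letters, and binding was not measured.

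Across the 3 days, more of these genes were lower in OSKM-ESCs than higher. Of the 33 members, 32 passed the filter (FPKM above 1 in at least 1 library of the comparison), and 17 were lower and 2 higher in OSKM-ESCs at an adjusted p under 0.05, beside 24.4% lower and 29.5% higher among all 14016 genes tested. The median difference in log2(FPKM + 1), OSKM minus 2iL, was -0.35 over the members tested and 0.03 over all genes. The member not tested was Hk3, a hexokinase of blood cells, which reached at most 0.142 FPKM in any ESC library. Pdk4, among the 17 lower, passed the filter only through 2iL-ESC libraries. Of the members, 7 (Hk1, Pfkp, Aldoa, Aldoc, Pgam1, Pdk1 and Pdk3) lay lower in all 6 OSKM-ESC libraries than in any 2iL-ESC library (12% of all genes), and Eno3 lay higher in all 6 (14.6% of all genes). With days 25 and 38 alone, an alternative chosen after seeing the data, 21 members were lower and 1 higher. Of the 12 fibroblast markers 10 were tested, and 9 were higher in OSKM-ESCs. Only 3 of the 12 passed the filter in the 2iL-ESC libraries alone, against 10 in the OSKM-ESC libraries alone. Most thus entered the test through the group where they were high, so the direction of this count was largely fixed by the filter.

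The largest difference lay at phosphofructokinase, which commits glucose to glycolysis. Pfkp, the platelet-type form (chr13:6579768-6648777, minus strand), had FPKM of 10.5 and 9.91 at day 18, 9.23 and 8.85 at day 25, and 12.8 and 14.3 at day 38 in OSKM-ESCs. In 2iL-ESCs Pfkp had FPKM of 44.9 and 49.4, then 112 and 109, then 117 and 115 on the same days. Every OSKM-ESC library was below every 2iL-ESC library, and the ratio of the means was widest at day 25, when 2iL-ESCs were 12.2-fold higher. The log2 difference over all days was -2.86 ± 0.17 (SE, n = 6 against 6, limma adjusted p = 1.05e-07). Pfkl, the liver-type form, was lower too (-0.60 ± 0.08, adjusted p = 6.66e-05). Pfkm, the muscle-type form, had a log2 difference of 0.06 ± 0.07 (adjusted p = 0.548).

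The composition of the phosphofructokinase transcripts differed as well as their summed level. Pfkp made up 16.4 ± 3.69% (SD, n = 6) of the FPKM of the 3 genes in OSKM-ESCs and 53.1 ± 3.49% in 2iL-ESCs. Pfkl held 53.9 ± 3.95% against 34.7 ± 1.09%, and Pfkm 29.7 ± 4.86% against 12.3 ± 3.58%. None of these 3 shares overlapped between the media. For each, the exact two-sided permutation test gave the smallest p it can give with 6 against 6 libraries (p = 0.00216, adjusted p = 0.00433 over the 12 isoenzyme shares tested). The test shuffled libraries freely over the days, as if all were independent, although all came from 1 line. The summed FPKM of the 3 genes was 52.0 to 81.5 in OSKM-ESCs and 95.6 to 209.7 in 2iL-ESCs.

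At the first step of glucose use, Hk1 was low and flat in OSKM-ESCs. Hk1, a widely expressed hexokinase, had FPKM of 7.28 and 8.05 at day 18, 8.7 and 7.47 at day 25 and 8.04 and 8.19 at day 38 in OSKM-ESCs. In 2iL-ESCs it had FPKM of 13.3 and 13.1, 51 and 48.2, and 26.3 and 28.3. The groups did not overlap, and the log2 difference was -1.61 ± 0.22 (adjusted p = 7e-05). Hk2, the inducible form, ranged from 30.6 to 36.2 FPKM (median 33.5) in OSKM-ESCs and from 30.7 to 55.8 (median 48.6) in 2iL-ESCs, with a log2 difference of -0.35 ± 0.10 (adjusted p = 0.0116). Hk2 provided 80.8 ± 0.876% of hexokinase FPKM in OSKM-ESCs and 61.9 ± 9.85% in 2iL-ESCs, without overlap (exact permutation test, adjusted p = 0.00433 over 12 shares).

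For the glucose transporters the direction depended on the day. Slc2a1, the general transporter GLUT1, had FPKM of 82.3 and 99.2 at day 18, 81.2 and 76.8 at day 25 and 184 and 180.0 at day 38 in OSKM-ESCs, against 43.7 and 43.2, 116 and 118, and 143 and 140.0 in 2iL-ESCs. It was higher in OSKM-ESCs at day 18 (log2 difference 1.04 ± 0.13, adjusted p = 0.00106), lower at day 25 (-0.56 ± 0.08, adjusted p = 0.00373) and higher again at day 38 (0.36 ± 0.04, adjusted p = 0.000744). Slc2a3, the high-affinity transporter GLUT3, was the more abundant of the pair in every ESC and iPSC library, at 144 to 283 FPKM in OSKM-ESCs and 145 to 381 in 2iL-ESCs. It was higher in OSKM-ESCs at day 18 (0.55 ± 0.11, adjusted p = 0.0072) and lower at day 25 (-1.28 ± 0.09, adjusted p = 0.000419), and its log2 difference at day 38 was 0.10 ± 0.04 (adjusted p = 0.07). Over the 3 days together neither transporter passed the test (limma adjusted p = 0.263 for Slc2a1 and adjusted p = 0.471 for Slc2a3).

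**Figure D1:**
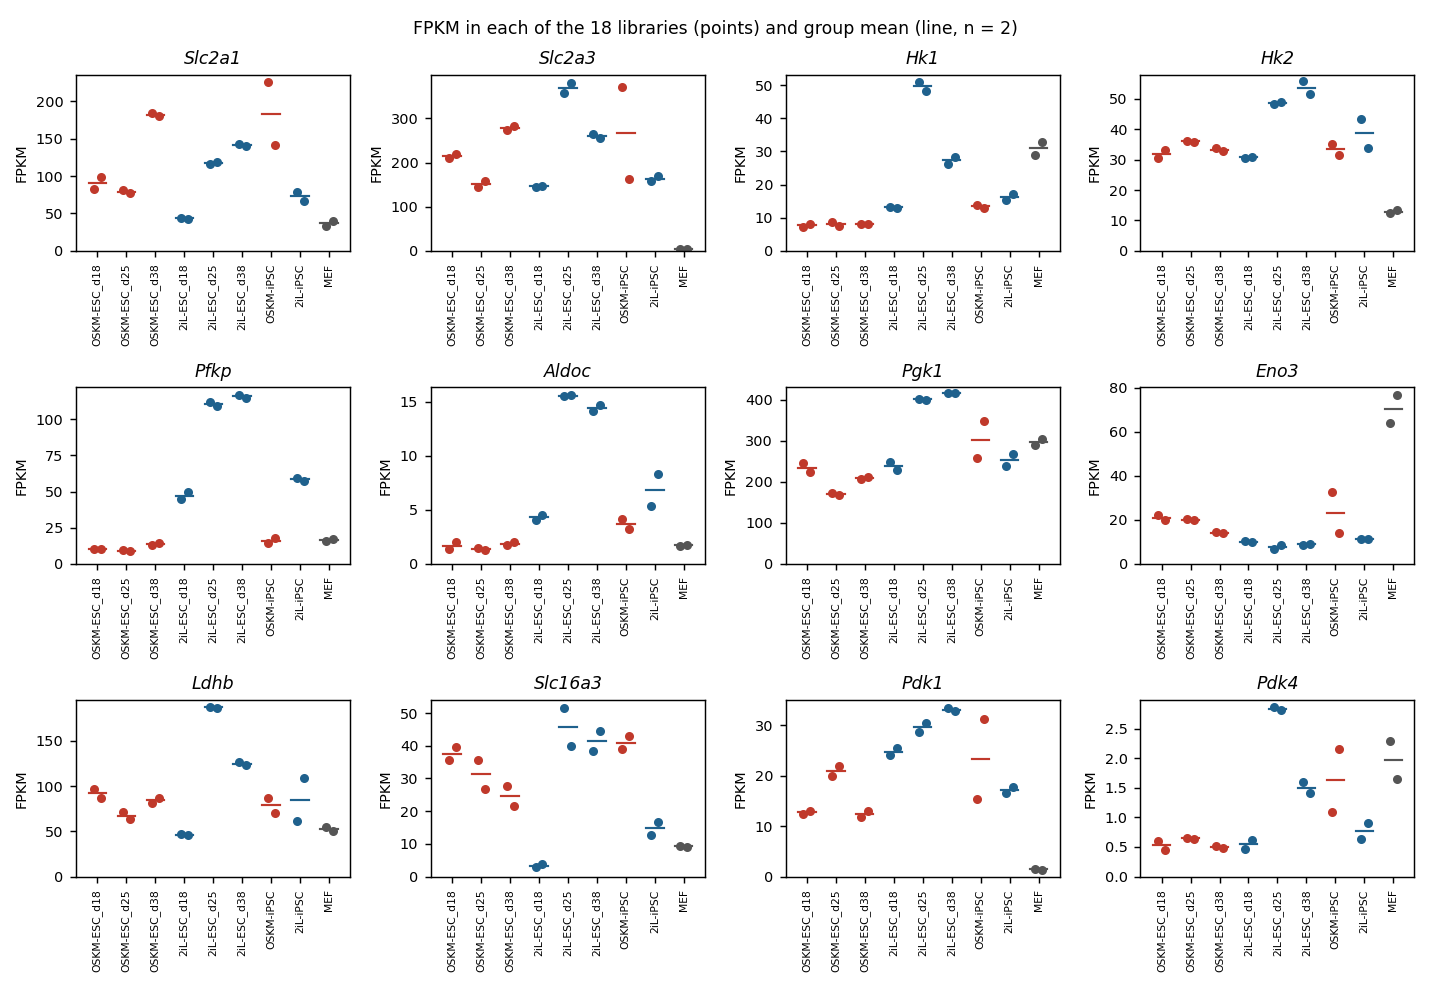
FPKM of 12 members in each of the 18 libraries, with OSKM groups in red, 2iL groups in blue, MEFs in grey, points for libraries and lines for the mean of 2. Pfkp, Hk1 and Aldoc are higher in every 2iL-ESC library than in any OSKM-ESC library, and Slc16a3 in 2iL-ESCs goes from 2.78 and 3.75 at day 18 to 51.5 and 40 at day 25.

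Both aldolases, which split fructose bisphosphate, were lower in OSKM-ESCs. Aldoc, the brain-type form, had FPKM of 1.33 and 1.99, 1.42 and 1.31, and 1.72 and 2.01 in OSKM-ESCs from day 18 to day 38. In 2iL-ESCs it had 4.07 and 4.51 at day 18, 15.5 and 15.6 at day 25, and 14.2 and 14.7 at day 38. The 2iL-ESCs were higher throughout, and the log2 difference was -2.08 ± 0.24 (adjusted p = 1.92e-05). Aldoa, the main form, ranged from 399 to 526 FPKM (median 447) in OSKM-ESCs and from 592 to 1130.1 (median 1054) in 2iL-ESCs, a log2 difference of -1.01 ± 0.10 (adjusted p = 5.82e-06). Aldoa is listed under 2 identifiers, and the values are those of the one that holds its RefSeq starts (chr7:126795234-126800751), while the other reached at most 4.06 FPKM.

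In the remaining steps the differences were smaller than those of Pfkp, Aldoc, Hk1 and Aldoa. Pgk1, which makes the first ATP, had a log2 difference of -0.75 ± 0.16 (adjusted p = 0.0017), Pgam1 one of -0.49 ± 0.06 (adjusted p = 3.91e-05) and Gpi1, the isomerase of the second step, one of -0.61 ± 0.12 (adjusted p = 0.000821). Gapdh, the most abundant member in the ESCs, had a log2 difference of -0.21 ± 0.08 (adjusted p = 0.0443) and Pkm, pyruvate kinase, one of -0.27 ± 0.08 (adjusted p = 0.0112). Tpi1 (-0.44 ± 0.18, adjusted p = 0.0555) and Eno1 (-0.14 ± 0.07, adjusted p = 0.119) did not pass the test. The calls of Gapdh, Eno2 and Pdha1 were lost under 14, 6 and 11 of the 23 alternatives tried.

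Among the enolases Eno3, the muscle-type form, was higher in OSKM-ESCs. Eno3 had FPKM of 22.2 and 19.8, 20.5 and 19.7, and 14.2 and 14 at the 3 days in OSKM-ESCs, against 10.1 and 9.75, 6.64 and 8.42, and 8.53 and 8.98 in 2iL-ESCs. All 6 OSKM-ESC libraries were the higher ones, with a log2 difference of 0.98 ± 0.11 (adjusted p = 1.02e-05). Its share of enolase FPKM was small, 2.51 ± 0.467% in OSKM-ESCs and 1.11 ± 0.237% in 2iL-ESCs, without overlap (exact permutation test, adjusted p = 0.00433). Eno2, the neuronal form, stayed between 0.66 and 3.09 FPKM in the ESC libraries, with a log2 difference of -0.54 ± 0.18 (adjusted p = 0.0231) and a share of 0.134 ± 0.0441% against 0.243 ± 0.104% (exact permutation test, adjusted p = 0.0482).

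At the pyruvate switch, Ldha was lower in OSKM-ESCs, and so were Pdk1 and Pdk3, kinases that restrain pyruvate dehydrogenase. Ldha, which favours lactate formation, ranged from 407 to 608 FPKM (median 472) in OSKM-ESCs and from 578 to 893 (median 829.6) in 2iL-ESCs, a log2 difference of -0.62 ± 0.09 (adjusted p = 9.92e-05). Pdk1 had FPKM of 12.5 and 13.1, 19.9 and 21.8, and 11.8 and 12.9 in OSKM-ESCs, against 24 and 25.4, 28.7 and 30.5, and 33.3 and 32.9 in 2iL-ESCs. Pdk1 was lower in all 6 OSKM-ESC libraries (-0.91 ± 0.12, adjusted p = 4.22e-05), and so was Pdk3 (-0.47 ± 0.10, adjusted p = 0.00152). Pdk4, the starvation-induced kinase, had a log2 difference of -0.66 ± 0.16 (limma adjusted p = 0.00499) at levels of at most 2.86 FPKM. Pdk4 was above 1 FPKM in no OSKM-ESC library, so it passed the filter only through 2iL-ESC libraries, which fixed its direction. Pdk2 had a log2 difference of -0.15 ± 0.09 (limma adjusted p = 0.192) at levels of at most 2 FPKM. Of the dehydrogenase subunits, Pdha1 was higher in OSKM-ESCs (0.16 ± 0.06, adjusted p = 0.0276) and Pdhb did not pass (0.17 ± 0.10, adjusted p = 0.164). The Pdk1 share of kinase FPKM was 53.2 ± 9.16% in OSKM-ESCs and 60.3 ± 2.97% in 2iL-ESCs (exact permutation test, adjusted p = 0.114).

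The bifunctional Pfkfb enzymes set the level of fructose 2,6-bisphosphate, the main activator of phosphofructokinase. All 4 were low, with Pfkfb1 at 5.01 to 9.85 FPKM in the ESC libraries and Pfkfb4 at 0.735 to 2.47. Pfkfb1 was the highest of the 4 in the ESC libraries except both OSKM-ESC libraries of day 25, where Pfkfb3 lay above it (5.88 and 5.93 against 5.68 and 5.21 FPKM). Pfkfb2 was lower in OSKM-ESCs (-0.44 ± 0.12, adjusted p = 0.00862), and Pfkfb1 (-0.18 ± 0.14, adjusted p = 0.315), Pfkfb3 (0.36 ± 0.20, adjusted p = 0.14) and Pfkfb4 (0.15 ± 0.17, adjusted p = 0.47) did not pass over all days. Pfkfb3, whose product favours synthesis of the activator, held 31.4 ± 7.69% of the family's FPKM in OSKM-ESCs and 21.7 ± 6.16% in 2iL-ESCs (exact permutation test, adjusted p = 0.0617).

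**Figure D2:**
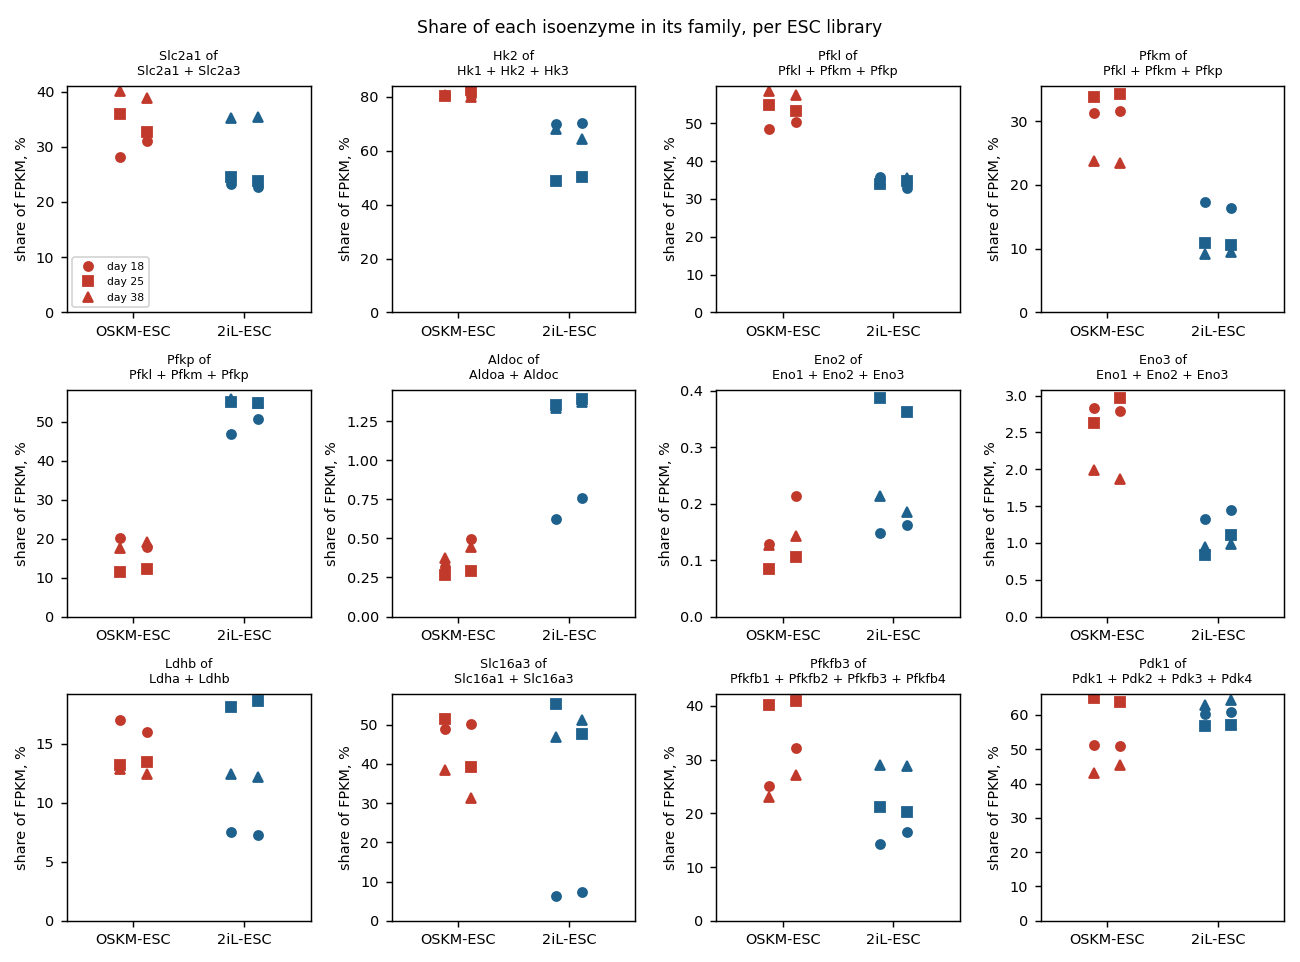
Share of 12 isoenzymes in the summed FPKM of their gene family in each ESC library, as a percentage on the vertical axis, with OSKM-ESCs in red, 2iL-ESCs in blue and a symbol for each day. The Pfkp share lies at 11.3 to 20.2% in OSKM-ESCs and 47.0 to 56.0% in 2iL-ESCs, and 6 shares (Hk2, Pfkl, Pfkm, Pfkp, Aldoc, Eno3) do not overlap between the media.

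Of the 12 shares, 7 differed at an adjusted p under 0.05 by the exact permutation test: those of Hk2, Pfkl, Pfkm, Pfkp, Aldoc, Eno2 and Eno3. With permutation only within days, which allows no exact p below 0.00926, 10 of the 12 shares kept their outcome, 1 lost its call and 1 gained one. With the same-numbered libraries of each day taken as pairs, none of the 12 passed (the 6 pairs allow no exact p below 0.0312). The Aldoc share was 0.366 ± 0.0906% in OSKM-ESCs and 1.14 ± 0.351% in 2iL-ESCs. The Slc2a1 share was 34.5 ± 4.66% against 27.5 ± 6.1% (exact permutation test, adjusted p = 0.0635). The Ldhb share (14.2 ± 1.86% against 12.7 ± 4.93%, exact permutation test, adjusted p = 0.519) and the Slc16a3 share (43.2 ± 8.03% against 35.7 ± 22.7%, adjusted p = 0.491) overlapped between the media.

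The medium effect was not the same on each day. On day 18, 30 members were tested (Hk3, Pdk2 and Pdk4 did not pass the filter), and 7 were higher and 6 lower in OSKM-ESCs, beside 25.7% and 17.7% of all 12774 genes. On day 25, 3 were higher and 21 lower of 32, beside 20.7% and 25.3% of 13098 genes. On day 38, 3 were higher and 23 lower of 32, beside 34.6% and 25.2% of 13142 genes. The members' median log2 difference was 0.01 at day 18, -0.61 at day 25 and -0.54 at day 38. Aldoa, Aldoc, Hk1, Pdk1, Pdk3 and Pfkp were lower on all 3 days and Eno3 was higher on all 3. Ldhb, Pdhb, Pfkfb3, Slc16a3, Slc2a1, Slc2a3 and Tpi1 were called in opposite directions on different days, and Hk3, Pdk2, Pfkm and Slc16a1 were called on none. In the test of the medium by day interaction itself, 26 of 32 members passed, beside 37.9% of all genes. Without either 2iL-ESC library of day 18, 7 members were called on that day, and without either of day 25, 13 or 12.

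**Figure D3:**
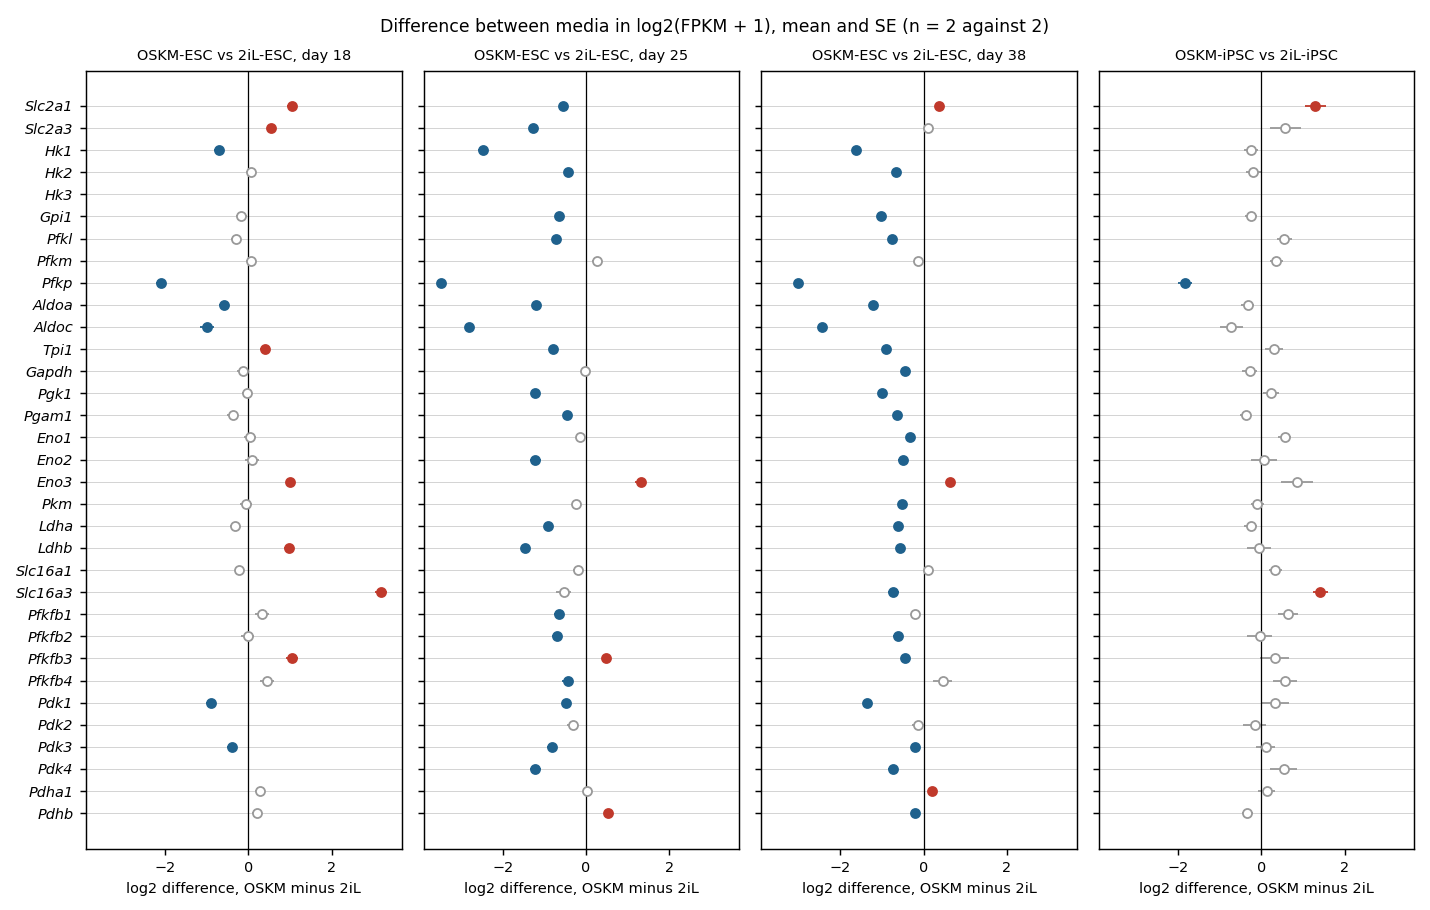
Difference between the media in log2(FPKM + 1), OSKM minus 2iL, for each member on days 18, 25 and 38 and in the iPSCs, with bars for the SE (n = 2 against 2), red where higher and blue where lower at an adjusted p under 0.05, and grey otherwise. Pfkp is the member furthest to the left in all 4 panels, and Slc16a3 goes from 3.18 at day 18 to -0.73 at day 38.

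Slc16a3, the lactate exporter MCT4, had the widest range of effects. Its FPKM in OSKM-ESCs was 35.6 and 39.5 at day 18, 35.8 and 26.9 at day 25, and 27.7 and 21.7 at day 38. In 2iL-ESCs it was 2.78 and 3.75, then 51.5 and 40, then 38.4 and 44.5. The 2iL-ESCs of day 18 were alone in being low, and OSKM-ESCs were 11.5-fold higher on that day (log2 difference 3.18 ± 0.15, adjusted p = 3.22e-05). At day 38 they were lower (-0.73 ± 0.13, adjusted p = 0.00571), and the medium by day interaction had an adjusted p = 1.46e-05 (limma). Slc16a1, the transporter MCT1, stayed at 33.9 to 47.9 FPKM in the 12 ESC libraries.

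Ldhb, the lactate dehydrogenase that favours pyruvate formation, also changed direction. Its FPKM was 97 and 86.6, 71.7 and 63.2, and 81.8 and 86.4 in OSKM-ESCs, against 47.3 and 45.4, 188 and 186, and 126 and 124 in 2iL-ESCs. It was higher in OSKM-ESCs at day 18 (0.97 ± 0.11, adjusted p = 0.000879) and lower at day 25 (-1.46 ± 0.09, adjusted p = 0.000352) and day 38 (-0.57 ± 0.04, adjusted p = 0.000319). Ldhb made up 7.29 to 7.49% of lactate dehydrogenase FPKM in 2iL-ESCs at day 18 and 18.1 to 18.7% at day 25.

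In 2iL-ESCs alone, 26 of 32 members changed over days 18, 25 and 38 (50.8% of all genes tested there), and 24 of these 26 had their lowest mean at day 18. The other two, Pdha1 and Pdhb, were lowest at day 25. The share of all genes with their lowest mean on a given day was not counted in either medium. The 2iL-ESC libraries of day 18 had the fewest genes above 1 FPKM in the series (11303 and 11329). In OSKM-ESCs 13 of 31 members changed, near the share over all genes (38.6%). Of these 13, 2 had their lowest mean at day 18, 7 at day 25 and 4 at day 38. Whether a member changed in one medium and not in the other is answered by the interaction, not by these counts. In 2iL-ESCs the mean at the highest day exceeded that at the lowest by 14-fold for Slc16a3, 5.20-fold for Pdk4, 4.03-fold for Ldhb, 3.77-fold for Hk1, 3.63-fold for Aldoc and 3.26-fold for Slc2a1. In OSKM-ESCs the widest such ratio among the 13 was 2.30-fold, for Slc2a1. Gapdh, Eno3, Slc16a1, Pfkfb2, Pfkfb4 and Pdk3 were the members tested that did not pass over the days in 2iL-ESCs. Without either OSKM-ESC library of day 38, 5 or 7 members passed in OSKM-ESCs.

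The 33 members took 1.59 to 1.69% of all TPM (the same values rescaled to one common total per library) in 2iL-ESCs at day 18, 2.26 to 2.31% at day 25 and 2.27 to 2.31% at day 38. In OSKM-ESCs they took 1.55 to 1.82% across the 3 days, so that the 2iL-ESCs of day 18 lay within the range of OSKM-ESCs and those of the later days above it. The share was 1.73 and 1.86% in the OSKM-iPSC clones, 1.68 and 1.93% in the 2iL-iPSC clones, and 1.39 and 1.49% in MEFs.

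**Figure D4:**
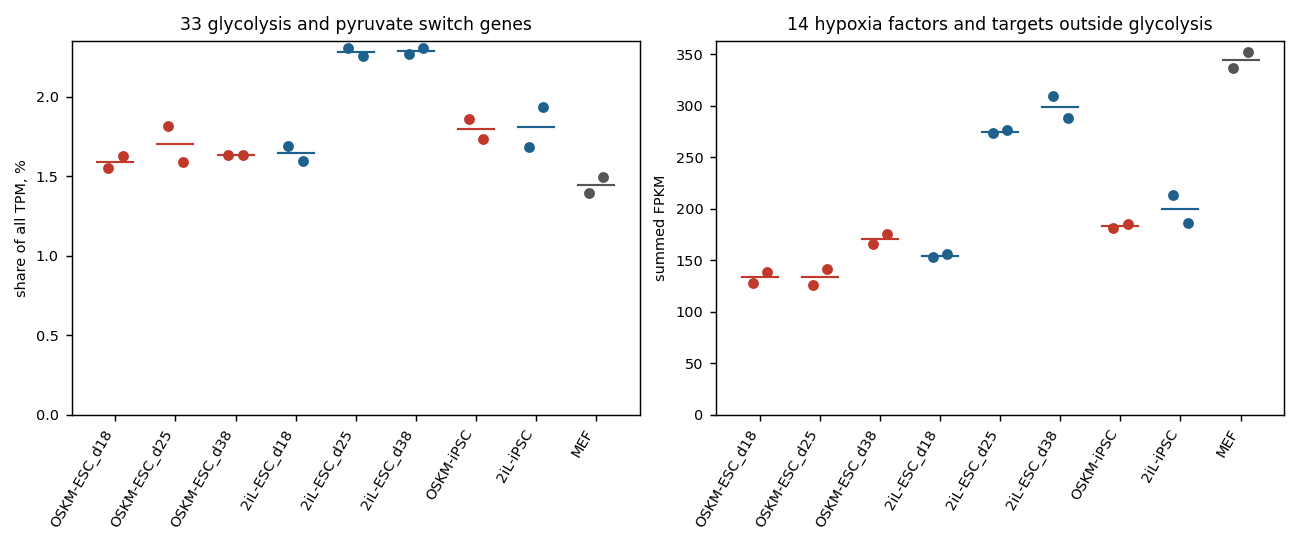
Percentage of all TPM taken by the 33 members, and summed FPKM of 14 hypoxia factors and targets outside glycolysis, in each library, with points for libraries, OSKM groups in red, 2iL groups in blue and MEFs in grey. Both are higher in 2iL-ESCs at days 25 and 38 (at least 2.26% and 273 FPKM) than at day 18 (at most 1.69% and 156 FPKM), while MEFs have the lowest percentages and the highest sums (337 and 352 FPKM).

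A list of 14 hypoxia factors and targets outside glycolysis had its higher sums in the ESC libraries on the same days. It summed to 153 and 156 FPKM in 2iL-ESCs at day 18, 273 and 276 at day 25 and 309 and 288 at day 38, against 126 to 175 in the OSKM-ESC libraries. The highest sums of the series were in MEFs, 337 and 352 FPKM, where the members' share of TPM was lowest, and the iPSC clones had 182 to 213. On day 18, 4 of its 12 tested genes were higher and 3 lower in OSKM-ESCs, on day 25 10 of 13 were lower, and on day 38 1 was higher and 9 lower. Over all genes tested 25.7% were higher and 17.7% lower on day 18, 25.3% lower on day 25, and 34.6% higher and 25.2% lower on day 38, so the day 18 counts lie near those shares. Bnip3, which marks mitochondria for removal, had 7.38 to 9.47 FPKM in OSKM-ESCs, whereas in 2iL-ESCs it had 10.9 and 9.95 at day 18, 43.8 and 47.2 at day 25, and 62.0 and 58.8 at day 38. At day 25 Ndrg1, a stress-response gene, had a log2 difference of -3.31 ± 0.11 (adjusted p = 0.000103) and P4ha1, a collagen prolyl hydroxylase, one of -2.41 ± 0.10 (adjusted p = 0.000117). At day 18 their means were higher in OSKM-ESCs, 5.85 against 4.43 FPKM for Ndrg1 and 5.58 against 3.37 for P4ha1. Kdm3a, of the same list, was highest at day 18 in 2iL-ESCs, with means of 60.3, 39.8 and 53.7 FPKM over the days. Vegfa overlapped between the media at day 38, at 33.8 and 36.8 FPKM in OSKM-ESCs and 34.2 and 31.9 in 2iL-ESCs. Hif1a, the oxygen-regulated subunit of the factor, was higher in OSKM-ESCs over all days (0.67 ± 0.10, adjusted p = 0.000162). The part of this list in the members' values was not tested.

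Over the 3 days, 4 of the 5 lists of neighbouring pathways held genes called in both directions. Among all 14016 genes tested 24.4% were lower and 29.5% higher in OSKM-ESCs, so calls in both directions were common. Of 17 other glycolysis genes 8 were tested, and 5 were lower and 2 higher in OSKM-ESCs, with the widest differences for Tigar, a fructose bisphosphatase (-1.19 ± 0.07, adjusted p = 4.77e-08), among the lower and the glucose transporter Slc2a4 (0.77 ± 0.10, adjusted p = 3.53e-05) among the higher. Of 10 genes of pyruvate entry and the pyruvate dehydrogenase complex, 4 were lower, including the phosphatase subunit Pdp2 (-1.53 ± 0.11, limma adjusted p = 4.47e-07), the testis form Pdha2 (-0.73 ± 0.10, limma adjusted p = 6.37e-05) and the mitochondrial pyruvate carrier Mpc1 (-0.60 ± 0.09, limma adjusted p = 0.000157). Pdha2, at means of 0.0555 FPKM in OSKM-ESCs and 0.753 in 2iL-ESCs, passed the filter only through 2iL-ESC libraries, which fixed its direction. In that list 2 were higher, including Dld (0.50 ± 0.09, adjusted p = 0.000357). In the pentose phosphate pathway 5 of 8 were lower and 2 higher. The lower ones included the epimerase Rpe (-0.68 ± 0.08, adjusted p = 2.35e-05) and transaldolase, Taldo1 (-0.58 ± 0.05, adjusted p = 1.24e-06), and the higher ones G6pdx, the entry enzyme (0.49 ± 0.07, adjusted p = 6.5e-05). In the TCA cycle 7 of 17 were lower and 2 higher, with the widest differences for Idh2 (-1.04 ± 0.12, adjusted p = 1.88e-05) among the lower and Dlst (0.44 ± 0.08, adjusted p = 0.000854) among the higher. Of 6 gluconeogenesis genes 2 were tested and 0 passed the limma test, with 0 at an unadjusted p under 0.05. The median log2 differences were -0.37 for other glycolysis genes, -0.11 for pyruvate entry, -0.31 for the pentose phosphate pathway, -0.14 for the TCA cycle and 0.32 for gluconeogenesis, beside 0.03 over all genes.

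In the iPSCs 3 members passed the test between the media. Of 32 members tested, 2 were higher and 1 lower in OSKM-iPSCs, near the shares of all 13653 genes (5% and 2.96%). Pfkp had FPKM of 14.1 and 17.6 in the OSKM-iPSC clones and 59.2 and 57.6 in the 2iL-iPSC clones, a log2 difference of -1.82 ± 0.17 (adjusted p = 0.0107). Its share of phosphofructokinase FPKM was 16.3 and 16.5% in OSKM-iPSCs and 50.8 and 50.9% in 2iL-iPSCs. With 2 against 2 clones an exact permutation test cannot give a p below 0.333, so these shares were not tested.

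The other two were transporters. Slc16a3 had FPKM of 39 and 42.9 in OSKM-iPSCs and 12.8 and 16.8 in 2iL-iPSCs (log2 difference 1.42 ± 0.19, adjusted p = 0.0198). Slc2a1 had 226 and 141 against 79.1 and 66.4 (1.29 ± 0.25, adjusted p = 0.0419). Without OSKM-iPSC clone 1, the clone with the high fibroblast markers, the Slc2a1 difference was 0.95, limma adjusted p = 0.0618, while Pfkp (-1.68, limma adjusted p = 0.0286) and Slc16a3 (1.49, limma adjusted p = 0.0446) still passed. Without 2iL-iPSC clone 3 or without clone 6, 0 members passed, Pfkp being at -1.81, limma adjusted p = 0.318 and -1.84, limma adjusted p = 0.323.

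The 29 other members tested did not pass between the iPSC groups, and some spread widely between the clones. Slc2a3 had 372 FPKM in OSKM-iPSC clone 1 and 162 in clone 3, Eno3 had 32.5 and 13.9, and Pdk1 had 15.3 and 31.1. Eno1, at 1277 and 1132 FPKM, was above both 2iL-iPSC clones (751 and 880.1), with a log2 difference of 0.56 ± 0.16 (adjusted p = 0.0866). The retrocopy Eno1b, close in sequence to Eno1, was listed at 1.21 FPKM in OSKM-iPSC clone 1 and 104 in clone 3, against 173 to 246 in the ESC libraries. Reads of this pair can be split between them, so the Eno1 values are uncertain.

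The medium effect itself differed between ESCs and iPSCs for 16 of 32 members. In the test of the ESC effect minus the iPSC effect, 15 were lower and 1 (Pdhb) was higher, beside 8.67% and 5.55% of all 14621 genes. Hk1 had a gap of -1.36 ± 0.12 (adjusted p = 6.69e-05), Aldoc of -1.35 ± 0.21 (adjusted p = 0.00256) and Pdk1 of -1.25 ± 0.26 (adjusted p = 0.00963). Pfkl, lower in OSKM-ESCs, had a log2 difference of 0.55 ± 0.18 in the iPSCs (adjusted p = 0.115) and a gap of -1.15 ± 0.14 (adjusted p = 0.000504). Pfkp was lower in the OSKM groups of both cell types, with a gap of -1.04 ± 0.12 (adjusted p = 0.000435). The ESCs and iPSCs also differ in strain, passage and clone, which cannot be told apart from the cell type here.

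Against MEFs, 15 of 33 members were higher and 8 lower in OSKM-iPSCs, beside 34% and 26.4% of all 14210 genes, and 16 were higher and 11 lower in 2iL-iPSCs, beside 40.6% and 37.4% of 14224 genes. The comparisons share the MEF libraries. Slc2a3, at 3.49 and 3.37 FPKM in MEFs, was 77.7-fold higher in OSKM-iPSCs (log2 difference 5.80 ± 0.42, adjusted p = 0.00168) and 47.7-fold higher in 2iL-iPSCs (5.22 ± 0.09, adjusted p = 9.07e-06). Slc2a1 supplied 91.4% of the FPKM of the glucose transporter pair in MEFs, 42.2% in OSKM-iPSCs and 30.8% in 2iL-iPSCs. Hk2 held 28.4% of hexokinase FPKM in MEFs, 71.2% in OSKM-iPSCs and 70.2% in 2iL-iPSCs. Hk3 was at 1.64 and 1.49 FPKM in MEFs and at most 0.0453 in the iPSCs. Without either MEF library 0 members passed for OSKM-iPSCs, and 13 or 15 for 2iL-iPSCs.

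Among the enolases, Eno2 had 30.1 and 32.5 FPKM in MEFs and 0.759 to 1.4 in the 4 iPSC clones. It was lower in OSKM-iPSCs (-3.97 ± 0.20, adjusted p = 0.00122) and in 2iL-iPSCs (-4.04 ± 0.11, adjusted p = 1.86e-05). Eno3, at 64 and 76.7 FPKM in MEFs, was lower as well (-1.67 ± 0.42 and -2.53 ± 0.12), and Eno1 held 86.4% of enolase FPKM in MEFs, 98.1% in OSKM-iPSCs and 98.5% in 2iL-iPSCs. Pfkp, at 15.9 and 17.2 FPKM in MEFs, had a log2 difference of -0.06 ± 0.15 in OSKM-iPSCs (adjusted p = 0.726) and of 1.76 ± 0.09 in 2iL-iPSCs (adjusted p = 8.42e-05).

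At the pyruvate switch Pdk1 stood at 1.5 and 1.29 FPKM in MEFs and was higher in OSKM-iPSCs (3.25 ± 0.36, adjusted p = 0.0036) and in 2iL-iPSCs (2.92 ± 0.11, adjusted p = 3.86e-05). Pdk1 made up 5.50% of kinase FPKM in MEFs, where Pdk3 held 71.5%, and 52.7% in OSKM-iPSCs and 49.1% in 2iL-iPSCs. Pdhb was higher in both (1.23 ± 0.10 and 1.56 ± 0.10), as was Slc16a1 (2.07 ± 0.12 and 1.74 ± 0.13). Ldha was lower in both (-0.68 ± 0.12 and -0.43 ± 0.10), and Pkm, at 1149 and 1221 FPKM in MEFs, passed in neither (limma adjusted p = 0.182 and adjusted p = 0.564).

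**Figure D5:**
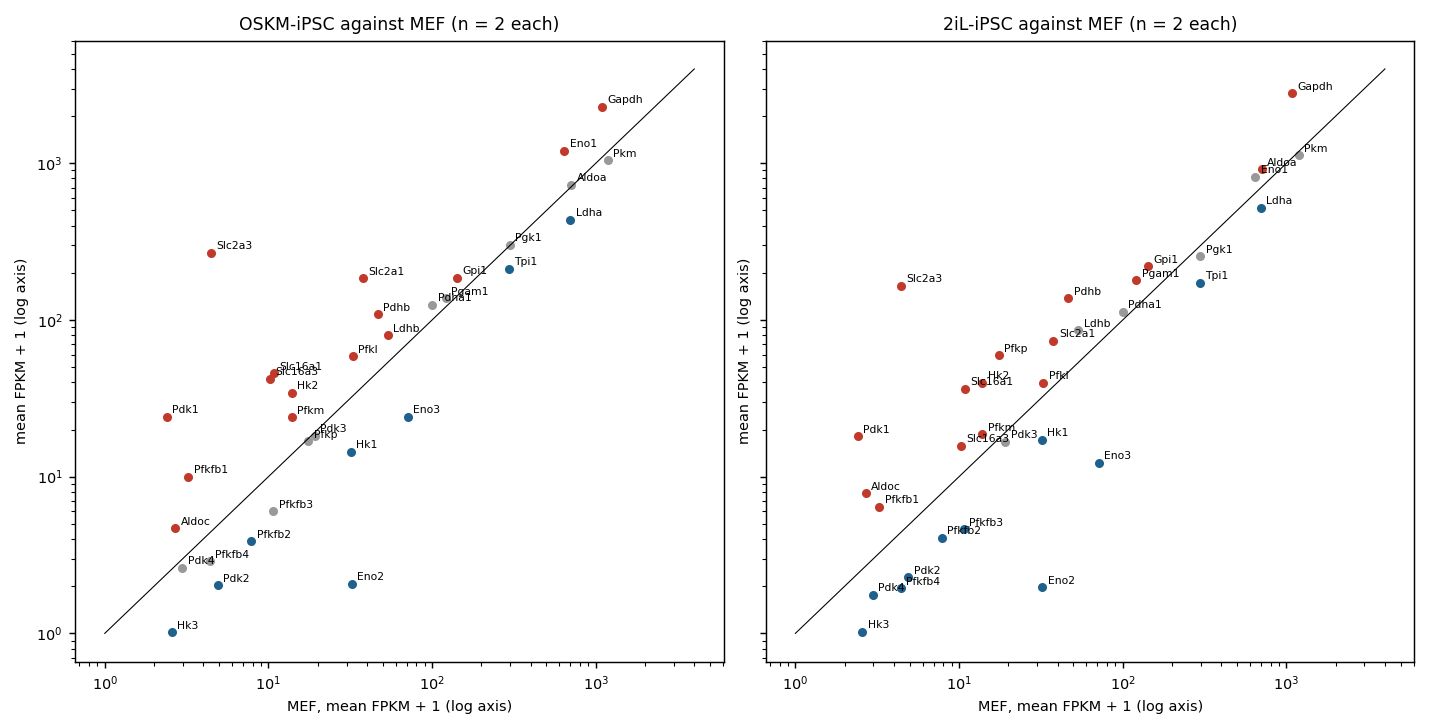
Mean FPKM + 1 of each member in MEFs (horizontal, log axis) and in OSKM-iPSCs or 2iL-iPSCs (vertical, log axis), n = 2 each, red where higher and blue where lower than in MEFs at an adjusted p under 0.05, grey otherwise, and a line marking equal levels. Slc2a3 and Pdk1 lie far above the line in both panels, Eno2 far below it, and Pfkp close to the line for OSKM-iPSCs and above it for 2iL-iPSCs.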

How the data were processed

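RNA-Seq of 18 libraries was analysed. Per the submitters' processing notes and the study's methods, the authors aligned reads to GRCm38/mm10 with STAR 2.7.1a, kept uniquely mapped reads, and used StringTie 2.0 for each library. Cuffdiff 2.2.1 is also named in those notes. The deposited files hold FPKM, TPM and read coverage (a signal) for each gene, without counts. FPKM were the values tested, deposited TPM were usable in 16 libraries and recomputed from FPKM in 2, and coverage served only as an index of depth. Of 55471 identifiers, 2 (U2surp and St13) were dropped because 1 library held a failed value, and 11 identifiers listed more than once were summed.

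Genes with FPKM above 1 in at least 1 library of a comparison were tested on log2(FPKM + 1), a scale that understates the change of low genes, with limma 3.58.1 (trended eBayes, R 4.3.3), Benjamini-Hochberg adjusted over all genes tested and called under 0.05. The ESC comparison over all days had day as a factor. Isoenzyme shares were compared with exact two-sided permutation tests (numpy 2.4.6, Python 3.11.15). The fits were tested on simulated data. The alternatives were another pseudocount (0.1), other filters, TPM, median-ratio scaling, quantile normalization, eBayes without trend and a fit of all 9 groups. Further ones were a replicate block, retrocopies added, and leaving out each library. For the shares, permutation within days and the log2 ratio to the rest of the family were also run. All 33 members are reported, and of the other lists up to 3 called genes in each direction, by size of change. Members and lists were chosen with earlier results of these data known. Promoters come from RefSeq (GRCm38.p6), and the build of the files is GRCm38.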

Additional observations from a re-analysis of the deposited data

Results flagged for a closer look

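The lowest of the 6 OSKM-ESC libraries for Pgam1 stood apart from the other libraries, with a gap to its nearest neighbour of 0.627 of the group's range, just past Dixon's limit for 6 samples. Chance alone singles out about 1 in 20 such groups.

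For 26 members the medium effect in ESCs differed between days 18, 25 and 38 by the limma interaction test. The range of the log2 difference over the days was widest for the first of these, namely Slc16a3 3.91, Ldhb 2.43, Slc2a3 1.83, Aldoc 1.81, Hk1 1.77, Slc2a1 1.6, Pfkfb3 1.5, Pfkp 1.37 and Eno2 1.31. It was next, in log2 units, Tpi1 1.29, Pgk1 1.21, Pdk4 1.2, Pfkfb1 0.988, Pfkfb4 0.894, Pdk1 0.866, Gpi1 0.849, Hk2 0.726 and Pdhb 0.724. The remaining ranges, in log2 units, were Eno3 0.681, Pfkfb2 0.675, Aldoa 0.62, Pdk3 0.612, Ldha 0.598, Pfkl 0.461, Pkm 0.455 and Pfkm 0.394.

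For 16 members the medium effect differed between ESCs and iPSCs by a limma contrast of the difference itself. The ESC effect minus the iPSC effect, in log2 units, was Hk1 -1.36, Aldoc -1.35, Pdk1 -1.25, Pdk4 -1.2, Pfkl -1.15, Pfkp -1.04, Slc2a1 -1.01, Pgk1 -0.99 and Pfkfb1 -0.817. For the others this difference, in log2 units, was Slc16a3 -0.781, Tpi1 -0.755, Eno1 -0.708, Aldoa -0.676, Pdk3 -0.576, Pdhb 0.509 and Slc16a1 -0.438.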

How the results depend on the processing

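Over the ESC days together, 19 members passed, and 16 to 24 passed under the alternatives run, with 17 to 21 when single libraries were left out. With the replicate block 16 passed, losing Gapdh, Eno2 and Pdha1. The deviations of same-numbered libraries were not correlated above 0.1 on every day (r = 0.131, 0.0904 and 0.012 at days 18, 25 and 38 over 14016 genes), so the numbers were not taken as pairs. The block gave 15, 24 and 26 members at days 18, 25 and 38, 27 for the interaction and 0 of 12 isoenzyme shares in place of 7, where 6 pairs allow no exact p below 0.0312. With days 25 and 38 only, added after seeing the data, 22 members passed, and Slc2a1 (-0.10) and Slc16a3 (-0.63) took the opposite sign.

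Leaving out single libraries gave 7 to 12 members at day 18, 12 to 26 at day 25, 5 to 15 over the days in OSKM-ESCs, 0 to 5 between the iPSC groups, 0 to 25 for OSKM-iPSCs against MEFs, 13 to 24 for 2iL-iPSCs against MEFs, and 6 to 9 isoenzyme shares. The low counts came without either 2iL-ESC library of its day, either OSKM-ESC library of day 38, either 2iL-iPSC clone and either MEF library. In groups of 2 libraries every omission left 1, and why only some omissions lost calls was not tested. Without a filter on low values 0 members passed between the iPSC groups and 8 over the days in OSKM-ESCs, and 1 fit of all 9 groups gave 15 between the iPSC groups. Median-ratio scaling changed the split of higher and lower calls from 7 and 6 to 6 and 9 at day 18 and from 2 and 1 to 1 and 1 in the iPSCs, and the median of all genes for OSKM-iPSCs against MEFs from 0.19 to 0.03. The median of all genes also moved from 0.0862 to -0.0158 between the iPSC groups under quantile normalization and from 0.0921 to -0.00817 for 2iL-iPSCs against MEFs with TPM. The cause of these changes was not tested.

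Between the iPSC groups, 9 members that had not passed the test changed sign when single clones were left out, with log2 differences of -0.0168 to 1.18 for Slc2a3, -0.158 to 0.29 for Eno2, -0.236 to 0.0445 for Pkm, -0.469 to 0.345 for Ldhb, -0.377 to 0.298 for Pfkfb2, -0.121 to 0.772 for Pfkfb3, -0.153 to 0.828 for Pdk1, -0.159 to 0.368 for Pdk3 and -0.106 to 0.361 for Pdha1. Under quantile normalization Eno2 (-0.102), Pkm (0.0184) and Pdk3 (-0.00899) changed sign. The files give no counts, so the error of low values is unknown.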
